A study of Mus musculus with 8 samples.

Results

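Keratins are the epithelial family of intermediate filament proteins, and their RNA levels were examined here in pancreatic ductal adenocarcinoma (PDAC) cells of the mouse. The family was taken as every gene symbol made of Krt, a number and at most 1 further letter that held at least 1 read in any library. This gave 39 keratin genes of 39179 genes in the count files. A further 12 keratin symbols were listed with 0 reads in all 8 libraries. The members were 22 type I and 17 type II keratin genes. The cells were 4 lines of the iKPC mouse model, each sequenced once with overexpression of WT-USP21 and once with overexpression of ED-USP21. USP21 is a deubiquitinating enzyme, and the labels leave the abbreviation ED without an explanation. Both constructs shared the same transgenes in every line, among them ROSA_rtTA and p48-Cre. These are a tetracycline-controlled transactivator and a Cre recombinase expressed from a pancreatic promoter. Lines 1 and 2 are labelled FVB/C57Bl6 and lines 3 and 4 C57BL/6. The labels give neither the age of the source animals, the number of clones behind a line nor the doxycycline state of the cultures, and cells carrying no construct were not analysed here.

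Keratin filaments form from pairs of 1 acidic (type I) and 1 basic (type II) protein, and a subunit without a partner is unstable. Simple, single-layered epithelia such as the pancreatic duct use the type II proteins KRT7 and KRT8 with the type I proteins KRT18 and KRT19, and the lining of the gut adds KRT20. The basal layer of stratified epithelia uses KRT5 with KRT14 and KRT15. KRT17, together with KRT6 and KRT16, appears in wounded or hyperproliferative epidermis. In human PDAC, KRT5, KRT6A, KRT14 and KRT17 are used as markers of basal-like or squamous tumours, whereas KRT20 is read as a marker of gastrointestinal differentiation.

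The sequences just upstream of 4 abundant simple-type keratins and of the basal keratin gene Krt5 are shown because these genes stand at opposite ends of the levels reported below. They are the 250 bases before the start of each gene as annotated by RefSeq in GRCm38.p6, written 5′ to 3′ on the strand of the gene. Krt8 is read from chr15:102004343-102004592 (minus strand), Krt18 from chr15:102027966-102028215 (plus), Krt7 from chr15:101412153-101412402 (plus), Krt20 from chr11:99438154-99438403 (minus) and Krt5 from chr15:101712906-101713155 (minus). Capitals mark a match, on either strand, to GGGCGG (the core bound by Sp1 and KLF factors), TATAAA (the TATA box), TGANTCA (AP-1) or CTTTGAT (TCF and LEF factors). No 2 of the matches shown overlap.
Krt8: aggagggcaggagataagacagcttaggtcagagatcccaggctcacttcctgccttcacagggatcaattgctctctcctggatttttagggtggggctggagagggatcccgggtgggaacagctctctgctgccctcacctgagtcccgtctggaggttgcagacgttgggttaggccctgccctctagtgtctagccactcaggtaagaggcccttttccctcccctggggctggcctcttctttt
Krt18: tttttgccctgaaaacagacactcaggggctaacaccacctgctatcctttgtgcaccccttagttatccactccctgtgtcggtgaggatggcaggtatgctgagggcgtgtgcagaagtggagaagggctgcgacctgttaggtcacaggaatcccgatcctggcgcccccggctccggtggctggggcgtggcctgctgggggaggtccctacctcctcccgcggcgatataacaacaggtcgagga
Krt7: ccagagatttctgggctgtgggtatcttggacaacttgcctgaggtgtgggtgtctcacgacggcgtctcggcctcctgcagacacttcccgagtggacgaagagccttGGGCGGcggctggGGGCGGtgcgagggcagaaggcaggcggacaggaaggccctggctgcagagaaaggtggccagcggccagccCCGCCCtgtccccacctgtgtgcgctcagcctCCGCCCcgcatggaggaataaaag
Krt20: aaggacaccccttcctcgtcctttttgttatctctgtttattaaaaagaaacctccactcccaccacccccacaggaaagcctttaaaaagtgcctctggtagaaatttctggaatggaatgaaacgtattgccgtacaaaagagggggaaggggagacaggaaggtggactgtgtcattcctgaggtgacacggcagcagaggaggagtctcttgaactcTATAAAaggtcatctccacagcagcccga
Krt5: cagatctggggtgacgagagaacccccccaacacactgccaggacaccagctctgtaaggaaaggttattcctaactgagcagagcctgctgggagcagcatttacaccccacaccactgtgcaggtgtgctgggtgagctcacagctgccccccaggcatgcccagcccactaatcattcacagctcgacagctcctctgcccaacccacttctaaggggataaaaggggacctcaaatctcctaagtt
Krt7 held 4 matches to GGGCGG and Krt20 held 1 match to TATAAA, while the windows of Krt8, Krt18 and Krt5 held none of these letters. Of the 39 members, 24 had an entry among the RefSeq promoters used here, and Krt17, Krt19, Krt80 and Krt83 are among those without one. Among these 24, GGGCGG was found for 1 gene, TATAAA for 11, TGANTCA for 1 (Krt13) and CTTTGAT for 0. Of all 32851 promoter windows of this length, 32.7% held GGGCGG, 12.4% TATAAA, 6.75% TGANTCA and 3.21% CTTTGAT. A match of letters is a description of the sequence and is not a measured binding site.

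Gene counts ranged from 72828184 to 107551210 reads per library, and 3 reads, the upper limit that a count of 0 allows, were worth 0.0289 to 0.0405 CPM (counts of a gene relative to the TMM-scaled gene total of its library, as edgeR's CPM). Usp21 stood at 147, 944, 539 and 941 CPM in WT-USP21 libraries of lines 1 to 4, lowest in line 1. The matching ED-USP21 libraries stood at 1657, 3132, 1661 and 2721 CPM. Each construct difference below therefore goes with a difference in the amount of Usp21 as well as its form. Line 1 stood apart from the others. The first principal component held 63.8% of the variance and separated its libraries from the rest, and values without line 1 are given beside the construct differences of the keratins that moved most. Lines 2 and 4 were the closest pair, with 717 genes at least 2-fold apart between their WT-USP21 libraries and 703 between their ED-USP21 libraries, against 1167 to 1718 between the constructs of 1 line. Whether they count as separate replicates cannot be told from the labels, so each n of 4 below may overstate the number of independent lines.

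The simple-type keratins made up nearly the whole keratin RNA of every library. Krt7, Krt8, Krt18, Krt19 and Krt20 held 98.9% to 99.2% of keratin reads in WT-USP21 libraries and 99.2% to 99.3% in ED-USP21 libraries. All keratins together took 0.783% to 1.28% of gene counts in WT-USP21 libraries and 0.804% to 1.07% in ED-USP21 libraries. The 4 basal-type genes, Krt5, Krt14, Krt15 and Krt17, held 1485 of 6789282 keratin reads over the 8 libraries, or 0.0219%. In these bulk libraries, fewer cells that express a gene and less RNA per cell cannot be told apart.

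**Figure D1:**
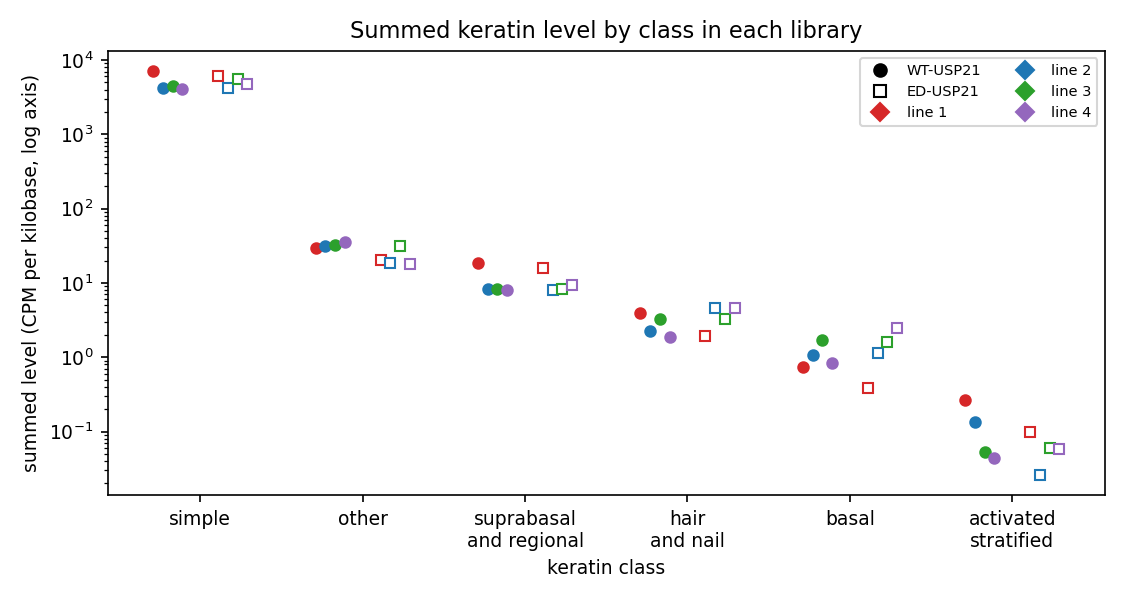
Summed level of each keratin class in each library, in CPM per kilobase of transcript on a log axis, with WT-USP21 libraries as filled circles and ED-USP21 libraries as open squares, coloured by cell line; "other" is Krt23 with Krt222, and the hair follicle sheath keratins, with 21 reads in all, are left out. Simple-type keratins lie between 4113 and 7124 CPM per kilobase in all 8 libraries, and basal-type keratins between 0.380 and 2.48.

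Krt18, the main type I partner of simple epithelia, was the most abundant keratin per length of transcript, at 2180.2 ± 412 CPM per kilobase (mean and SD over the 8 libraries). Its type II partner Krt8 followed at 1420.0 ± 372, and the ductal type I keratin Krt19 at 999 ± 336 CPM per kilobase. The order Krt18, Krt8, Krt19 held in 8 of 8 libraries. Krt7, the other type II keratin of ducts, stood at 382 ± 52.9 and Krt20 at 103 ± 21.5 CPM per kilobase. The place of Krt7 depended on the length used, because its annotated transcript of 4.09 kilobases has a coding part of 1.37 kilobases. Per kilobase of coding sequence Krt7 reached 1140 ± 158 and Krt19 1302 ± 439 CPM, and Krt19 was the higher in 5 of 8 libraries. Only these 2 neighbours among the 7 most abundant keratins were not separated in all 8 libraries on that scale.

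Type I and type II keratin RNA were present in a narrow range of ratios. Summed per kilobase of transcript, type II over type I stood at 0.563, 0.541, 0.510 and 0.530 in WT-USP21 libraries of lines 1 to 4 and at 0.574, 0.578, 0.496 and 0.574 in ED-USP21 libraries. For the single pair Krt8 over Krt18 the ratio was 0.731, 0.599, 0.538 and 0.549 in WT-USP21 libraries and 0.735, 0.732, 0.575 and 0.739 in ED-USP21 libraries. The WT-USP21 ratio was the lower of each pair, by little in line 1, and the groups overlapped. Krt19 over Krt18 stood at 0.578, 0.372, 0.336 and 0.308 with WT-USP21 and at 0.472, 0.554, 0.434 and 0.597 with ED-USP21, lower with WT-USP21 in lines 2, 3 and 4 and higher in line 1. These ratios are within a library and do not depend on the scaling between libraries. They were looked at after the levels had been seen and carry no test.

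Of the basal-type keratins, Krt14 alone reached 1 CPM. It stood at 1.01, 1.69, 2.79 and 1.24 CPM in WT-USP21 libraries of lines 1 to 4, against 0.424, 1.71, 2.52 and 3.85 CPM in the matching ED-USP21 libraries. The lowest level was in the ED-USP21 library of line 1 and the highest in that of line 4, and the groups overlapped. Krt15, another type I keratin of basal cells, stayed at or under 0.348 CPM, with 59 reads over the WT-USP21 libraries and 82 over the ED-USP21 ones. Krt5, the type II partner of Krt14 in basal cells, had 1 read in all 8 libraries, in the WT-USP21 library of line 4. Krt17 had 3 reads, 1 of them with WT-USP21 and 2 with ED-USP21. Of the keratins of activated epidermis, Krt6a had 2 reads and Krt6b 1 read, whereas their type I counterpart Krt16 reached 72 reads over the WT-USP21 libraries and 34 over the ED-USP21 ones. The levels of Krt5, Krt17, Krt6a and Krt6b lay below the 3-read limit in every library. Trp63, the transcription factor gene of basal and squamous cells, was at a like level, with 6 reads in all. It does not stand for the squamous and basal list of 26 genes to which it belongs. That list summed to 1201 to 1636 CPM in WT-USP21 libraries and 1179 to 1644 CPM in ED-USP21 libraries, and 1 of its genes had 0 reads.

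The remaining keratins above 1 CPM were few and low beside the simple types. Krt23, a type I keratin known from simple epithelia of the digestive tract, stood at 27.1 ± 6.96 CPM per kilobase (SD over 8 libraries), and Krt80, a type II keratin linked to cell junctions, at 4.95 ± 0.696. Krt83, a hair keratin, stood at 2.55 ± 1.10 CPM per kilobase. Krt10 and Krt13, type I keratins of the upper layers of skin and of internal stratified epithelia, stood at 1.38 ± 0.254 and 2.02 ± 1.42. Krt79, a type II keratin of the skin and its glands, stood at 2.10 ± 3.22, with an SD above its mean. Krt83, Krt79, Krt13, Krt10 and Krt14 changed places from library to library, so their order is not fixed.

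The other 27 members stayed below 1 CPM in each construct mean and each line mean. Their highest single value was 0.710 CPM, for the hair keratin Krt39 in the ED-USP21 library of line 3. Krt36, Krt78, Krt222, Krt15, Krt12, Krt16, Krt33a, Krt33b and Krt40 had between 57 and 217 reads in all. Krt27, Krt4 and Krt31 had 11 to 14 reads, and 14 members had under 10, among them 6 with a single read. Reads of near-identical keratins, such as Krt14 with Krt16, Krt17 and Krt42, Krt6a with Krt6b, Krt33a with Krt33b, Krt83 with Krt81 and Krt86, or Krt8 with its processed pseudogene, can be split or lost by the counting, so the low values are uncertain. In the later annotation used for lengths, exons of Krt5, Krt6a, Krt6b, Krt7, Krt8, Krt10, Krt12, Krt76 and Krt80 overlap a gene on the other strand, and none of the sources used here states whether reads were counted by strand.

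**Figure D2:**
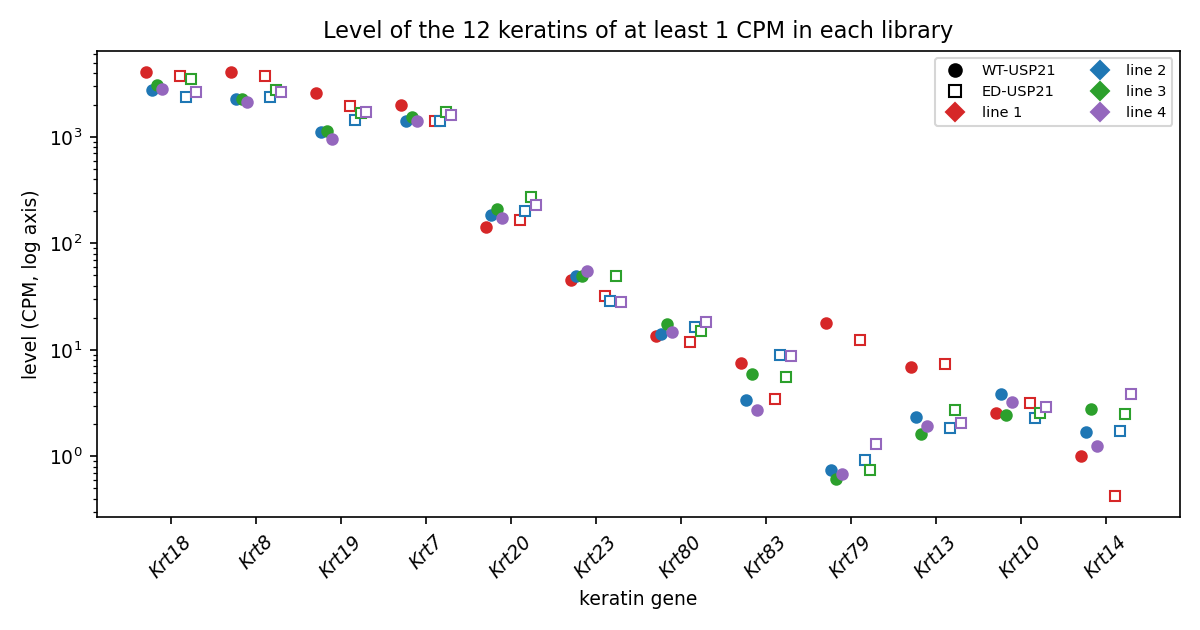
Level of the 12 keratins of at least 1 CPM in each library, in CPM on a log axis, WT-USP21 libraries as filled circles and ED-USP21 libraries as open squares, coloured by cell line, with genes ordered by mean CPM. Krt18 and Krt8 lie between 2128 and 4079 CPM, and Krt79 spreads from 0.608 to 17.7 CPM with both line 1 libraries on top.

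Comparing WT-USP21 with ED-USP21 asks which keratins differ with the construct. No keratin passed in the edgeR test without the cell line as a block. In that test 0 of 19 tested keratins were called at an adjusted p under 0.05, beside 0% of the 16192 genes tested. An unadjusted p under 0.05 was found for 1 keratin, Krt23, beside 392 of the 16192 genes. The other 20 members were too low to test, none with more than 106 reads in all. The cell line as a block sets each WT-USP21 library against its own ED-USP21 partner. With it, edgeR called 0 of 19 keratins, beside 0.0247% of all genes. An unadjusted p under 0.05 was then found for 2 keratins, beside 1341 of the 16192 genes. On the log2 scale, the median of WT-USP21 minus ED-USP21 was -0.11 over the 19 keratins without the block and -0.07 with it, against -0.00 over all genes in both. The 19 are those that passed the filter on low counts, not the whole family. DESeq2 called 0 of 19 keratins without the block, beside 0.39% of genes (0.323% higher and 0.067% lower). With the block it called 2 of 20, Krt23 higher and Krt20 lower, beside 2.48% (1.94% higher and 0.536% lower). In none of the 12 keratins above 1 CPM were the 4 levels of 1 construct all above the 4 of the other, beside 1.07% of all genes with WT-USP21 all above and 0.71% with WT-USP21 all below, so that 0 of 12 is near the background.

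In all 4 lines Krt23 was higher with WT-USP21, a pattern shown by 9.02% of all genes tested. It stood at 45.8, 49.3, 49.9 and 55.4 CPM in WT-USP21 libraries of lines 1 to 4, against 32.1, 28.6, 49.7 and 28.4 CPM in the matching ED-USP21 libraries. The line 3 libraries were nearly equal, and the ED-USP21 library of line 3 was as high as the WT-USP21 libraries. The means were 50.1 ± 3.99 CPM with WT-USP21 and 34.7 ± 10.2 CPM with ED-USP21 (SD, n = 4 each). The log2 difference was 0.53 (SE 0.19) without the block (edgeR adjusted p = 0.9999) and 0.57 (SE 0.16) with it (edgeR adjusted p = 0.400), while DESeq2 with the block gave an adjusted p of 0.0363. Without line 1 the blocked value was 0.59 (edgeR adjusted p = 0.135).

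In all 4 lines Krt20 was lower with WT-USP21, as were 7.73% of all genes tested. It stood at 144, 184, 212 and 172 CPM in WT-USP21 libraries of lines 1 to 4, against 166, 204, 275 and 229 CPM in the matching ED-USP21 libraries. The highest level was in the ED-USP21 library of line 3 and both libraries of line 1 were the lowest of their construct, so that the groups overlapped across lines. The means were 178 ± 28.1 CPM with WT-USP21 and 218 ± 45.8 CPM with ED-USP21 (SD, n = 4 each). The log2 difference was -0.30 (SE 0.17) without the block (edgeR adjusted p = 0.9999) and -0.29 (SE 0.07) with it (edgeR adjusted p = 0.306), and DESeq2 with the block gave an adjusted p of 0.0367. Without line 1 the blocked value was -0.31 (edgeR adjusted p = 0.0657). Of the 12 keratins, Krt20 had the smallest SE in the blocked test.

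Krt19 was lower with WT-USP21 in 3 lines and higher in line 1. It stood at 2587, 1124, 1141 and 960.5 CPM in WT-USP21 libraries of lines 1 to 4, against 1938, 1454, 1676 and 1715 CPM in the matching ED-USP21 libraries. The WT-USP21 library of line 1 was the highest of all 8, and the other 3 WT-USP21 libraries were the 3 lowest. Over the 4 lines the log2 difference was -0.34 (SE 0.20) with the block, and Krt19 was not called (edgeR adjusted p = 0.738). Without line 1 it fell, and its log2 value was -0.58 (SE 0.09, edgeR adjusted p = 0.0261) with the block and -0.58 (SE 0.10, edgeR adjusted p = 0.0267) without it. It was then the single keratin called of 19, beside 4.57% of all genes with the block, 2.06% lower and 2.51% higher, and 2.35% without it, 0.851% lower and 1.49% higher. Line 1 was the only one of the 4 lines whose omission led edgeR to call a keratin.

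**Figure D3:**
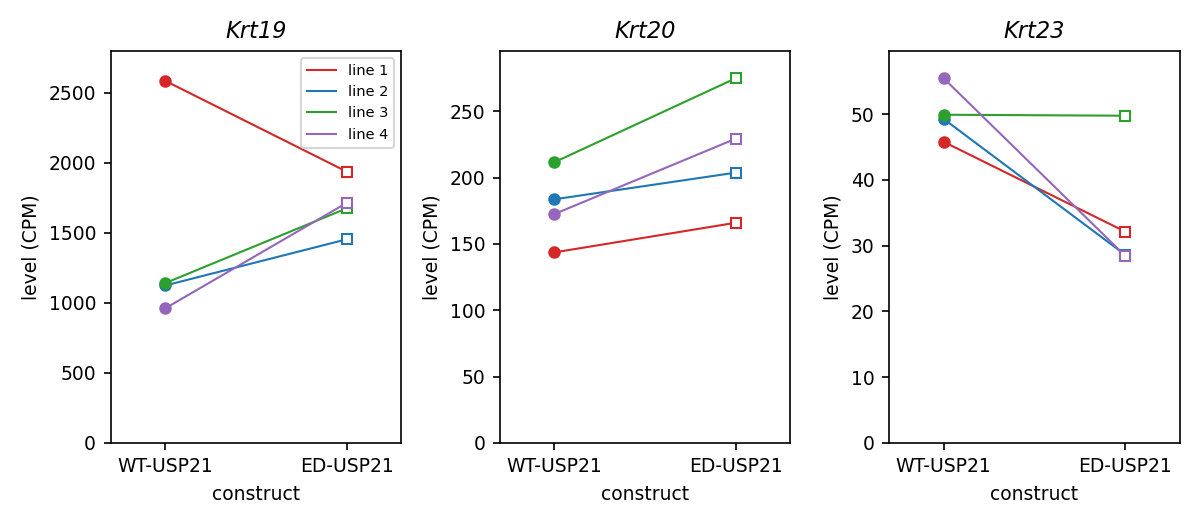
Level of Krt19, Krt20 and Krt23 in CPM for each construct, the 2 libraries of a line joined by a line of its colour. Krt20 is lower with WT-USP21 in each of the 4 lines and Krt23 higher, and Krt19 is lower in lines 2, 3 and 4 and higher in line 1.

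Neither partner of the main simple-type pair was called. Krt8 stood at 4066, 2250.2, 2271 and 2128 CPM in WT-USP21 libraries of lines 1 to 4, against 3744, 2388, 2759 and 2637 CPM in the matching ED-USP21 libraries. Line 1 held the 2 highest levels, and Krt8 was lower with WT-USP21 in lines 2, 3 and 4 and higher in line 1. Its log2 difference was -0.14 (SE 0.09, edgeR adjusted p = 0.766) with the block, and -0.22 (edgeR adjusted p = 0.132) without line 1. Krt18 stood at 4079, 2759, 3101 and 2845 CPM in WT-USP21 libraries of lines 1 to 4, against 3741, 2396, 3523 and 2619 CPM in the matching ED-USP21 libraries. It was higher with WT-USP21 in lines 1, 2 and 4 and lower in line 3, with a blocked log2 value of 0.07 (SE 0.08, edgeR adjusted p = 0.895).

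Krt7 stood at 2017, 1397, 1532 and 1425 CPM in WT-USP21 libraries of lines 1 to 4, against 1407, 1399.8, 1702 and 1625 CPM in the matching ED-USP21 libraries. The WT-USP21 library of line 1 was the highest, and in the other lines the 2 constructs were within 0.19 of each other on the log2 scale. Its log2 difference was 0.04 (SE 0.13, edgeR adjusted p = 0.966) with the block, and -0.11 without line 1. The summed level of the simple types was 7124, 4219, 4526 and 4113 CPM per kilobase in WT-USP21 libraries of lines 1 to 4 and 6175, 4257, 5483 and 4773 in ED-USP21 libraries. The log2 difference of that sum averaged -0.07 with an SD of 0.22 over the 4 lines, -0.17 without line 1 and -0.0072 without line 3. The summed level of the basal types was 0.742, 1.09, 1.69 and 0.826 CPM per kilobase with WT-USP21 and 0.380, 1.14, 1.58 and 2.48 with ED-USP21, a mean log2 difference of -0.15 with an SD of 1.06, which was -0.52 without line 1 and 0.33 without line 4. Both mean differences were smaller than the spread between lines.

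Among the lower keratins, the construct difference went in different directions in different lines. Krt14 had log2 differences of 1.21, -0.02, 0.15 and -1.61 in lines 1 to 4, and Krt83 1.13, -1.40, 0.09 and -1.71. For Krt83 the levels were 7.52, 3.40, 5.98 and 2.69 CPM in WT-USP21 libraries of lines 1 to 4, against 3.42, 9.01, 5.60 and 8.84 CPM in the matching ED-USP21 libraries. The ED-USP21 libraries of lines 2 and 4 were the highest and the WT-USP21 libraries of the same lines among the lowest, next to the ED-USP21 library of line 1. In the blocked edgeR test the mean log2 difference of Krt83 came to -0.48 (SE 0.51, adjusted p = 0.873), and that of Krt14 to -0.07 (SE 0.46, adjusted p = 0.986). Single lines moved both, with blocked values for Krt83 of -1.0, -0.14 and -0.047 without lines 1, 2 and 4, and for Krt14 of -0.48, -0.15 and 0.44 without lines 1, 3 and 4. Krt80 stood at 13.6, 14.1, 17.7 and 14.7 CPM in WT-USP21 libraries of lines 1 to 4, against 11.8, 16.4, 15.0 and 18.1 CPM in the matching ED-USP21 libraries, the narrowest relative range of the 12 genes beside that of Krt7. Its log2 difference was -0.02 (SE 0.12, edgeR adjusted p = 0.986). Krt10 stood at 2.54, 3.88, 2.42 and 3.23 CPM in WT-USP21 libraries of lines 1 to 4, against 3.20, 2.31, 2.56 and 2.93 CPM in the matching ED-USP21 libraries. The constructs overlapped, and its log2 difference was 0.12 (SE 0.21, edgeR adjusted p = 0.936).

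**Figure D4:**
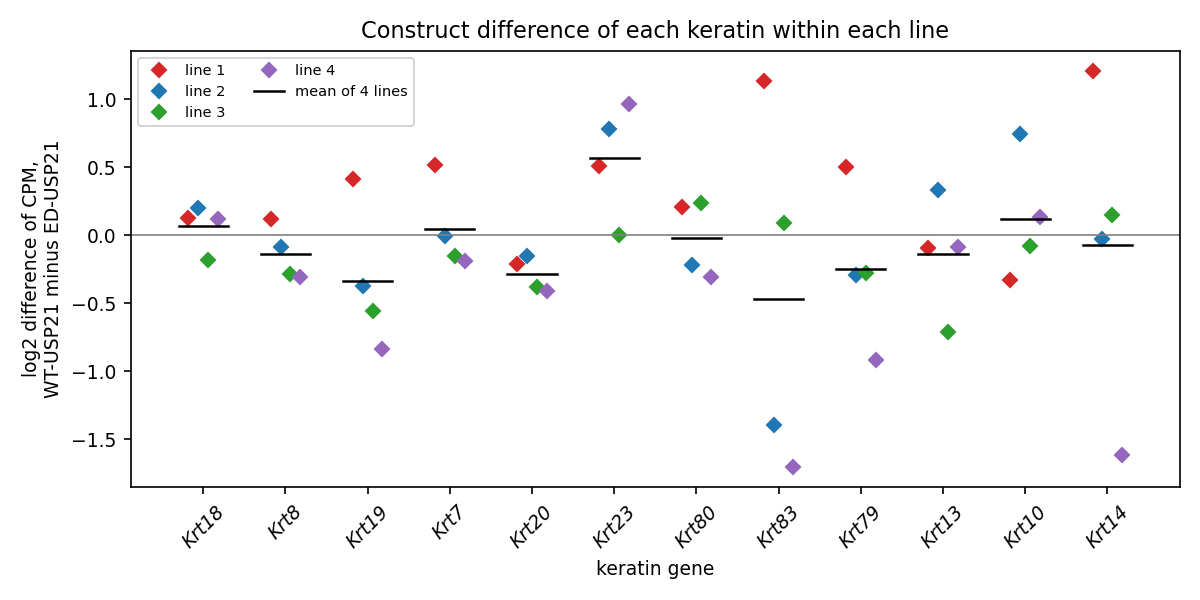
Log2 difference of CPM, WT-USP21 minus ED-USP21, of the 12 keratins within each cell line (diamonds, coloured by line), with the mean of the 4 lines as a bar and genes ordered by mean CPM. Krt20 lies below 0 and Krt23 at or above 0 in every line, and the line 1 points of Krt8, Krt19, Krt7, Krt83, Krt79 and Krt14 lie above those of the other lines.

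The construct difference was also compared between the background labels, with lines 1 and 2 (FVB/C57Bl6) against lines 3 and 4 (C57BL/6). The edgeR interaction test called 0 of 19 keratins, beside 0% of 16192 genes. An unadjusted p under 0.05 was found for 1 keratin (Krt78), beside 375 of the 16192 genes. The interaction is the log2 construct difference in lines 1 and 2 minus that in lines 3 and 4. Its median was 0.43 over the 19 keratins, above 0 in 18 of them, against -0.0028 over all genes. Without line 1 the median was 0.23, above 0 in 15 of 19, against 0.0048 over all genes. The 19 keratins come from the same libraries and are not independent of each other, so these counts carry no test. For Krt19 the interaction was 0.72 (SE 0.29, edgeR adjusted p = 0.990), from log2 differences of 0.42, -0.37, -0.55 and -0.84 in lines 1 to 4. Line 1 stood apart from line 2 of the same label, and the closest pair, lines 2 and 4, carry different labels. The label and the line therefore cannot be told apart here.

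The keratins that differed between the cell lines were mostly set apart by line 1. The edgeR F test of the 4 lines, with the construct as a covariate, called 5 of 19 keratins (Krt79, Krt13, Krt8, Krt20 and Krt18), beside 24.8% of all genes tested. The share among keratins was thus close to the background. Both line 1 libraries were above all 6 libraries of the other lines in 6 of 19 tested keratins, beside 25.9% of genes, and below all 6 in 4 of 19, beside 24.4%. Tested over lines 2, 3 and 4 alone, edgeR called 0 of 19 keratins, beside 0.398% of genes. An unadjusted p under 0.05 was found for 3 keratins, beside 2723 of 16326 genes. DESeq2 called 7 of 22 keratins over the 4 lines, beside 36% of genes.

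Krt79 differed most between lines. It stood at 17.7, 0.744, 0.608 and 0.685 CPM in WT-USP21 libraries of lines 1 to 4, against 12.5, 0.918, 0.742 and 1.31 CPM in the matching ED-USP21 libraries. Both libraries of line 1 were far above the other 6, and line 1 averaged 15.1 CPM against 0.831, 0.675 and 0.999 CPM in lines 2, 3 and 4. Line 1 was 18.1-fold above the mean of the other lines, and the 2 lines farthest apart differed by 4.51 on the log2 scale (edgeR adjusted p = 0.00136). Krt13 stood at 6.89, 2.35, 1.64 and 1.94 CPM in WT-USP21 libraries of lines 1 to 4, against 7.35, 1.86, 2.70 and 2.06 CPM in the matching ED-USP21 libraries. Line 1 was 3.40-fold above the mean of the other lines, with a range of 1.83 on the log2 scale between lines (edgeR adjusted p = 0.0108).

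Krt8 and Krt18 were also higher in line 1. Mean Krt8 was 3905, 2319, 2515 and 2382 CPM in lines 1 to 4 (edgeR adjusted p = 0.0178) and mean Krt18 3910.4, 2577, 3312 and 2732 CPM (edgeR adjusted p = 0.0337). Line 1 was 1.62-fold above the mean of the other lines for Krt8 and 1.36-fold for Krt18. Krt19 averaged 2262, 1289, 1408 and 1338 CPM in lines 1 to 4. The line 1 level was again the highest, but Krt19 was not called in edgeR (adjusted p = 0.128), whereas DESeq2 gave an adjusted p of 0.00766. Krt20 went the other way, with 155, 194, 243 and 201 CPM in lines 1 to 4 (edgeR adjusted p = 0.0215), lowest in line 1 and highest in line 3. Krt14 was also lowest in line 1, at 0.717, 1.70, 2.65 and 2.55 CPM, without passing the test (edgeR adjusted p = 0.199). Krt7, Krt10, Krt23, Krt80 and Krt83 were not called between lines, with ranges of 0.29, 0.30, 0.43, 0.37 and 0.14 on the log2 scale.

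**Figure D5:**
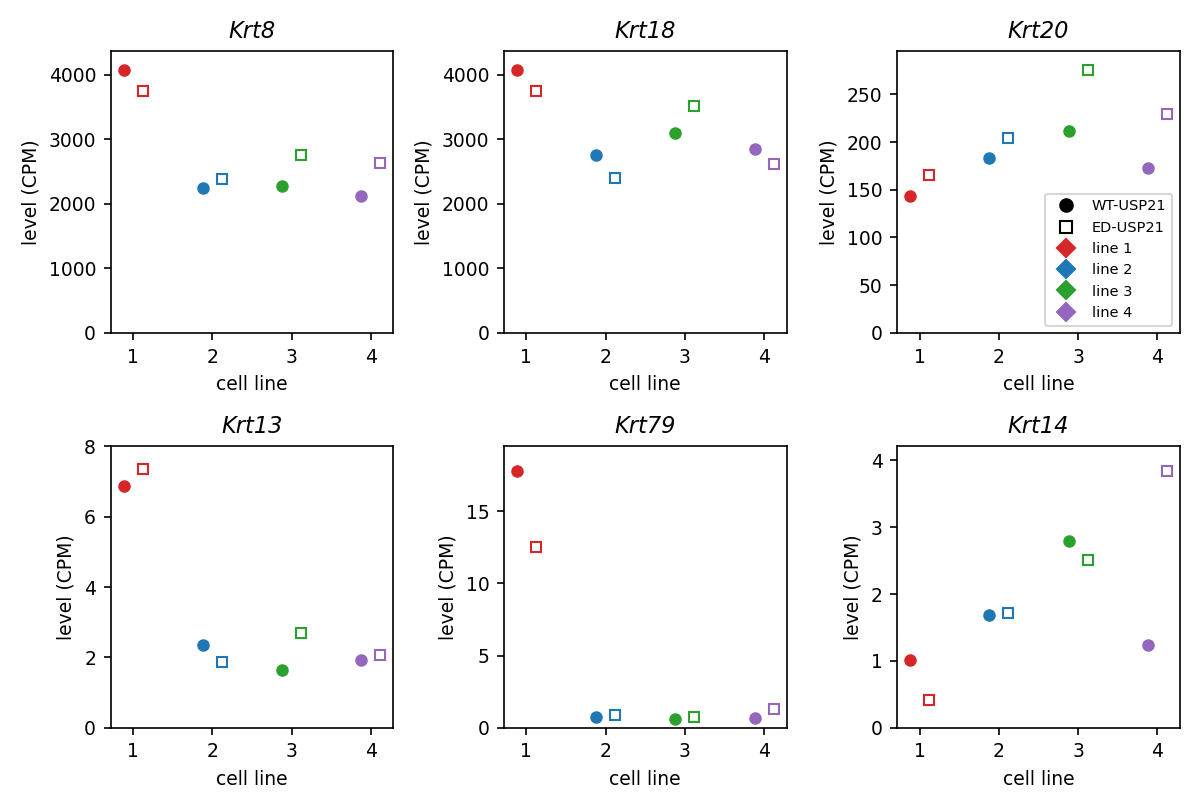
Level in CPM of 6 keratins by cell line, WT-USP21 libraries as filled circles and ED-USP21 libraries as open squares. Krt8, Krt18, Krt13 and Krt79 are highest in both line 1 libraries, and Krt20 and Krt14 lowest there.

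Genes that go with keratin filaments were examined next, from lists chosen with earlier results of these data known. Linkers of keratin to desmosomes and hemidesmosomes differed widely in level. Dsc1, Dsc3, Dsg1a and Dsg3, desmosomal cadherin genes, had at most 16 reads in all and were not tested. The linker gene Plec stood at 2124 ± 300.3 CPM with WT-USP21 and 2092 ± 68.6 CPM with ED-USP21, and the desmoplakin gene Dsp at 266 ± 91.2 CPM with WT-USP21 and 299 ± 36.0 CPM with ED-USP21 (SD, n = 4 each). Of 13 tested linkers edgeR called 0 without the block and 0 with it, beside 0% and 0.0247% of all genes. The blocked DESeq2 test put Pkp1 higher and Ppl lower, beside 1.94% of all genes higher and 0.536% lower. Their median log2 difference was 0.01 with the block. The plakophilin gene Pkp1, a desmosomal plaque protein, was the higher in the WT-USP21 library of each line (log2 1.16, SE 0.19, edgeR adjusted p = 0.184). The periplakin gene Ppl, whose protein links keratin to desmosomes, was the lower there in each line (log2 -0.46, SE 0.11, edgeR adjusted p = 0.303). Without line 1, 1 linker of 13 (Pkp1) rose and 2 (Ppl and Pkp4) fell in edgeR with the block, beside 2.51% of all genes higher and 2.06% lower. Between lines edgeR called 4 of 13 linkers (Dsc2, Dsg2, Evpl and Pkp1), near the 24.8% of all genes, and line 1 had the highest mean of each.

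Vimentin RNA, the mesenchymal intermediate filament, was as abundant as the main keratins by read count. Vim stood at 2980.5 ± 399 CPM with WT-USP21 and 2900.2 ± 392 CPM with ED-USP21 (SD, n = 4 each). Of 11 other intermediate filament genes tested, edgeR called 0 with and without the block (median log2 difference -0.09 with the block), and DESeq2 with the block 0. Nes, the nestin gene, rose without line 1 (log2 0.77, edgeR adjusted p = 0.0426). Of 15 tested genes of the squamous and basal programme, edgeR called 0 with and without the block (median -0.20 with it). In the blocked test without line 1, 4 of 16 fell, among them Ivl, Klf4 and Sprr1a, beside 2.06% of all genes called lower. Of 14 regulators of simple epithelium 0 were called with and without the block (median -0.12 with it). In that test without line 1, 4 of 14 fell, among them Ehf, Elf3 and Hnf4a. Of 7 EMT factors edgeR called 0 with and without the block (median 0.53 with it). DESeq2 with the block called 1 higher, beside 1.94% of all genes. In the blocked edgeR test without line 1, Twist1 and Zeb2 rose. That test without line 1 called 2.51% of all genes higher. Dsp, Plec, Dsc1, Dsc3, Dsg1a, Dsg3, Vim, Trp63, Dsg2, Evpl and the genes named only for the setting without line 1 were chosen after their values had been seen.

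Markers of cell types were read to check the label of PDAC cells. The epithelial cadherin gene Cdh1 stood at 289 to 544 CPM and the keratins of simple epithelium were high, whereas the epithelial markers Epcam, Cldn4, Cldn7, Esrp1 and Rab25 reached no more than 5.34, 0.272, 0.797, 0.0869 and 0.365 CPM. Epcam averaged 4.37 CPM in line 1 and 0.142 to 0.208 CPM in lines 2, 3 and 4. Fibroblast markers summed to 6.85 to 18.1 CPM with WT-USP21 and 4.79 to 8.38 CPM with ED-USP21, and 3 of 7 (Dcn, Lum and Thy1) had 0 reads. Endothelial markers summed to 2.42 to 7.48 CPM with WT-USP21 and 0.664 to 0.946 CPM with ED-USP21. That sum was led by Kdr, and the constructs did not overlap in it. Of all genes tested, 1.07% had the 4 WT-USP21 levels all above the 4 ED-USP21 levels. Emcn, 1 of 6, had 0 reads, and only 2 of the 6 were tested in edgeR, so the sum does not stand for the markers as a set. Kdr itself had a blocked log2 value of 3.74 (SE 0.35, edgeR adjusted p = 0.0692), and DESeq2 with the block called it. Immune markers summed to 6.02 to 12.9 CPM with WT-USP21 and 4.99 to 15.8 CPM with ED-USP21, led by Cd68, and Emr1 had 0 reads. Acinar markers summed to 2.11 to 9.32 CPM with WT-USP21 and 2.67 to 11.3 CPM with ED-USP21, led by Cela1, and 3 of 6 (Amy2a5, Pnlip and Ptf1a) had 0 reads. Immune and acinar sums were lowest in line 1, at 4.99 to 6.02 and 2.11 to 2.67 CPM. The part of the fibroblast and endothelial markers in the keratin values was not tested.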

How the data were processed

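Total RNA of 8 libraries (4 cell lines, each with WT-USP21 and ED-USP21) was sequenced. The authors deposited raw counts of reads per gene. The tools named per the submitters' processing notes are HTSeq, Cufflinks, TopHat, STAR and CASAVA, and the build is mm9; versions and roles are not given there. Rows for reads in no gene (11.4% to 20.6% of counts) were left out. Gene symbols were taken from the deposited files. Some genes and alleles are not reported here.

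Differences were tested with edgeR 4.0.16 (quasi-likelihood, TMM, default low-count filter, R 4.3.3) over 16192 genes with Benjamini-Hochberg adjustment and a threshold of 0.05. SE is the absolute log2 difference over the square root of F. Log2 CPM used a prior count of 2. DESeq2 1.42.0, with and without the block, the lines left out in turn, other scaling and no filter were alternatives. The scripts were tested on simulated data.

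Levels of different genes were compared per kilobase of the principal coding transcript in GENCODE vM21 (GRCm38), which is not the build of the counts. All 39 members had a length there.

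The line numbers pair libraries, since both libraries of a number come from 1 cell line. Their deviations from the group means correlated at 0.770, 0.503, 0.468 and 0.347 in lines 1 to 4. Line 1 is part of these means, and libraries of different lines were not correlated. The values are therefore no test of the pairing. The members and lists were chosen with earlier results of these data known. Each keratin of at least 1 CPM in a construct or line mean is given by library. From each list, up to 4 genes with the smallest blocked p could be named, and any called gene. Counting intervals and limits cover counting error only, and p-values speak of these 4 lines.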

Additional observations from a re-analysis of the deposited data

Results flagged for a closer look

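In 34 groups of 4 libraries (12 keratins and 5 keratin sums, each by construct), 10 had 1 library whose gap to the nearest of the others took more of the range than Dixon's 95% critical value for 4, where chance gives about 1 in 20, or 1.7. In all 10 it was the library of line 1, and it was the highest. The 34 groups share the same 4 lines and are not independent, so the 1.7 is no fair baseline. This gap was not computed over all genes. Of all genes tested, 25.9% had both line 1 libraries above the 6 of the other lines and 24.4% had both below. That is a different measure from the gap, so whether the flags are particular to keratins was not tested. The gap took 0.992 of the range for Krt79 with WT-USP21 and 0.951 with ED-USP21, and 0.864 for Krt13 with WT-USP21 and 0.848 with ED-USP21. It took 0.926 for Krt8 and 0.889 for Krt19, both with WT-USP21. For the summed levels with WT-USP21 it took 0.863 for simple types, 0.835 for type I, 0.911 for type II and 0.864 for all keratins, sums that share their most abundant members.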

How the results depend on the processing

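For WT-USP21 against ED-USP21, 0 genes were called without the block, 4 with the replicate block, 64 in DESeq2 and 407 in DESeq2 with the replicate block. With a line left out the count ranged from 0 to 383 without the block and from 0 to 746 with it, the highest without line 1. The keratins called were 0, but 2 in DESeq2 with the replicate block and 0 to 1 with a line left out. The block changed no other keratin call. Between lines 4019 genes were called, but 6455 in DESeq2 and 65 to 3261 with a line left out (2483 without line 2), and the 5 keratins called became 0 to 4. For the background label the counts were 0 throughout. RLE scaling and no filter moved no count of calls by over 1.5 times.

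For the 12 keratins, 134 of 155 alternative construct differences kept direction and call, 4 were called in addition and 17 differed in sign from the unblocked value, none of these called. Krt79, at 0.35 without the block, was -0.22 with the replicate block and -0.22 in DESeq2 with it. With a line left out and no block, Krt79 ranged over -0.54 to 0.43, Krt10 over -0.085 to 0.29, Krt14 over -0.60 to 0.24, Krt7 over -0.11 to 0.13 and Krt80 over -0.13 to 0.071. With the block, Krt79 stayed below 0 without lines 1, 2 and 3 (-0.50, -0.20 and -0.21) and was 0.0098 without line 4. Blocked signs turned for Krt10 (-0.091 without line 2), Krt13 (0.050 without line 3), Krt14 (0.44 without line 4), Krt7 (-0.11 without line 1) and Krt80 (0.046 and 0.076 without lines 2 and 4). The cause was not tested. Between lines 75 of 84 kept their call. The lost calls were those of Krt8, Krt13, Krt18, Krt20 and Krt79 without line 1, of Krt18 without line 2 or line 4, and of Krt20 without line 3. The mean log2 difference of the basal class sum, -0.15 over the 4 lines, turned to 0.33 without line 4. At this depth 20 keratins, of at most 106 reads in all, could not be tested.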
